A study of Homo sapiens with 8 samples.

Results

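Keratins, the other cytoplasmic intermediate filaments, the nuclear lamins and the tubulins form the filaments and tubules of the cytoskeleton that are not made of actin. Their genes were followed in a human podocyte line with and without LATS2 overexpression. A locus was taken as a member where a gene name at that locus was a keratin, VIM, DES, GFAP, INA, NEFL, NEFM, NEFH, SYNM, a lamin or an alpha-, beta- or gamma-tubulin. This gave 93 of the 29004 loci in the gene table, with 86 different lead names, since TUBB was listed 8 times, once on chromosome 6 and 7 times on alternative versions of that chromosome. RNA sequencing covered 8 samples of 1 stable AB8/13 line, an immortalized podocyte line grown at 33 °C that carries a lentiviral, doxycycline-inducible wild-type LATS2 construct. In the 4 LATS2 OE samples the construct was switched on with 125 ng/mL doxycycline for 8 h, and the 4 untreated samples carried the same construct without the drug, so that doxycycline and LATS2 cannot be told apart. No line without the construct was part of the comparison, which asks what early Hippo pathway activation does to transcription in these cells.

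Intermediate filaments are rope-like polymers that give cells mechanical strength. Keratin filaments need 1 acidic type I and 1 basic type II keratin, while vimentin and desmin (type III) can assemble alone and the neurofilament proteins (type IV) usually copolymerize. Lamins line the inner side of the nuclear envelope, and microtubules are built from alpha- and beta-tubulin pairs on templates that contain gamma-tubulin. In podocytes vimentin filaments and microtubules run through the cell body and the large processes, while the foot processes rest mainly on actin. LATS kinases phosphorylate the coactivators YAP and TAZ and keep them out of the nucleus.

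The table gives each locus 1 pooled FPKM value per group (sequenced fragments scaled to exon length and sequencing depth). It holds no value for a single sample and no SD. The authors' own ratio and test per locus are also in it but were not used. The differences below therefore come without a test and were not set against the spread between replicates. The depth behind each value is unknown. In most cells of at least 1 FPKM the decimal point stands in the wrong place. From the pooled values alone the level is thus open by powers of 10. The ratio of LATS2 OE to untreated was taken as the one at which both group values lie nearest to each other. Where both values are open, this cannot return a ratio above 3.16-fold. All named loci with 1 possible value in each group and at least 1 FPKM, 89 in number, stayed under that limit, as did all but 1 of 2509 named loci between 0.1 and 1 FPKM in both groups. Both sets were picked by having the 2 group values in the same range of level, which itself keeps large ratios out. These counts therefore do not test the rule for loci with open digits. Genes with both values open and a true change above 3.16-fold are misread, and in the wrong direction where the nearest reading lies on the other side. For LATS2 itself the digits allowed a ratio of 2.01, 20.1 or 0.201, among others. CTGF and ANKRD1 are YAP target genes, which fall when LATS kinases are active. The rule reads both as higher in LATS2 OE cells, with ratios of 1.98 and 2.25, and the nearest readings that are lower are 5.06-fold and 4.44-fold lower, which the rule cannot return. If these genes fell, the rule therefore turns the direction of both, and the same can hold for any other gene whose digits are open. The pooled values could thus not be used to check the labels, and the direction of every member with open digits rests on the rule. A gene is called higher or lower below where its ratio was at least 1.5-fold and both groups reached 1 FPKM. This is a rule of size and not a test.

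Of the podocyte markers, SYNPO, PODXL, CD2AP and ACTN4 had at least 1 FPKM in both groups, and WT1 stood at 0.413 FPKM in untreated and 0.412 FPKM in LATS2 OE cells. The transcription factor gene TCF21 had 0.135 FPKM in untreated and 0.0483 FPKM in LATS2 OE cells, and PTPRO had 0.00324 and 0.00689 FPKM. The slit diaphragm gene NPHS1, a defining marker of mature podocytes, was nearly absent, with 0.00875 FPKM in untreated and 0.00616 FPKM in LATS2 OE cells. At least 1 FPKM in both groups was reached by 1 of 6 markers of tubular epithelium (AQP1), 0 of 5 of endothelium, 3 of 4 of mesangium and stroma, 3 of 3 of parietal epithelium and 0 of 3 of leukocytes. None of the markers at that level was called, and the highest endothelial value was 0.0391 FPKM (TEK). In RNA from whole cultures, fewer cells of a type and less RNA per cell cannot be told apart.

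Among the 35 members with 0.1 FPKM or more in each group, those furthest from the untreated value were KRT80 and KRT34, which were lower in LATS2 OE cells, and NEFM, NEFL, SYNM and TUBB3, which were higher. For 3 of these 6 a sequence ahead of the transcription start is shown. These are SYNM and TUBB3 of the higher and KRT34 of the lower members, none of which was called, and TUBB3 has 2 starts. KRT80 has no entry in the sequence table used, and none is shown for NEFL and NEFM. The sequences are the 250 bases upstream of the RefSeq start (table of GRCh38.p14), 5′ to 3′. Each matched 1 place on its own strand and chromosome in hg19, and other chromosomes were not searched. Capitals mark the letters of 3 motifs searched on either strand. TEAD factors, the partners of YAP, bind a core of GGAATG. AP-1 was searched for as TGANTCA, which includes both usual middle letters. The box near many starts was searched for as TATAAA, and no match overlapped another.
SYNM, chr15:99645036-99645285, plus strand: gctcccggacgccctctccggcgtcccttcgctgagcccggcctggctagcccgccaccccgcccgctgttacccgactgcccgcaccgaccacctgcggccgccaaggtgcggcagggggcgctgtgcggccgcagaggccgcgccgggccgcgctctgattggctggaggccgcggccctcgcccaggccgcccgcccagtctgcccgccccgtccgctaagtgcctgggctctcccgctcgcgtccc
TUBB3, first start, chr16:89988083-89988332, plus strand: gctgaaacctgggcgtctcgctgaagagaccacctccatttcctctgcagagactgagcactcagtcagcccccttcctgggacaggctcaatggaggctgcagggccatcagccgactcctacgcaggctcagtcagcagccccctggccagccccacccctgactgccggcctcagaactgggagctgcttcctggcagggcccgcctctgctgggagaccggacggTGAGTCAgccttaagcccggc
TUBB3, second start, chr16:89989500-89989749, plus strand: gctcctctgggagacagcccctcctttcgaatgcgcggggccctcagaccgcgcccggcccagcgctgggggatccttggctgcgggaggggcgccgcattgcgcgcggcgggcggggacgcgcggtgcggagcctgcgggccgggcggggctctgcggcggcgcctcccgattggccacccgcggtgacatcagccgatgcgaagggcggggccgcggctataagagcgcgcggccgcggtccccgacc
KRT34, chr17:39538559-39538808, minus strand: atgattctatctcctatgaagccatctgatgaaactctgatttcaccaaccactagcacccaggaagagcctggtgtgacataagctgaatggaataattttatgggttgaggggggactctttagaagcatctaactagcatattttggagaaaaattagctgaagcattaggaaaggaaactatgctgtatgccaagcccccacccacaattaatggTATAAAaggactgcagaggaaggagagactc

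These windows held no GGAATG. TUBB3 held 1 AP-1 match that began 21 bases ahead of its first start, and KRT34 held 1 match to the box that began 31 bases ahead of its start. For both genes the RefSeq starts differ from the loci of the gene table. The KRT34 locus runs to base 39538636 and so includes this match to the box. The TUBB3 locus begins at base 89988417, after the first window, and includes the second window. Over all 35116 windows of that length in the table, 11.9% held GGAATG, 6.57% the AP-1 letters and 10.7% the box letters. The share of G and C was 78.8% for SYNM, 65.6% and 78.0% for the first and second TUBB3 starts and 42.4% for KRT34, beside a median of 58.0% over all windows. A match is a run of letters and does not show that a factor binds there.

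Most member loci were silent or close to silent in these cells. Values of 1 FPKM or more in each group were found for 27 of the 93 loci. A further 8 had at least 0.1 FPKM in both groups and less than 1 in 1 or both, 16 were above 0 in both groups but below 0.1 in at least 1, and 10 were listed at 0 in 1 group. In both groups 30 were listed at 0, among them the 7 copies of TUBB on alternative chromosomes. The last 2 loci, TUBA1A with TUBA1B and TUBA1C, had no estimate. Over the 27 loci the median log2 ratio was 0.02, beside -0.0039 over 11916 named loci of the same level, and the members within 10% of the untreated value numbered 18 of 27 (66.7%, beside 72.1% of all named loci). One of the 27 was called higher and 1 lower, where 1.28% of all named loci were called higher and 1.65% lower (2.93% in either direction). These shares, and the later percentages of named loci of this level, rest on the same nearest-value rule. Larger true changes of loci with open digits are misread in them too. The plot of loci by level shows which classes were expressed.

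**Figure D1:**
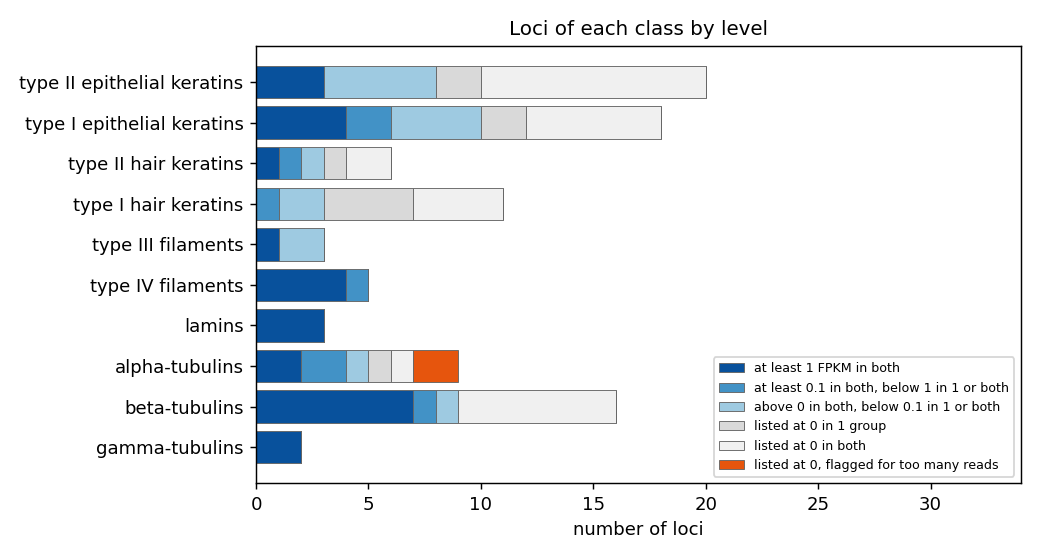
Number of member loci (x axis) in each structural class (y axis), split by pooled FPKM level in the untreated and LATS2 OE groups. All 3 lamins and both gamma-tubulins reached 1 FPKM in both groups, while 10 of 20 type II epithelial keratins and 4 of 11 type I hair keratins were listed at 0 in both.

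Among type II epithelial keratins, KRT7, KRT8 and KRT80 reached 1 FPKM in both groups (3 of 20). KRT80, a keratin found in many epithelia and enriched near desmosomes in differentiating cells, was 1.57-fold lower in LATS2 OE cells (log2 ratio -0.65). Its digits read 51.8 FPKM in untreated and 33.0 FPKM in LATS2 OE cells, with the decimal point of both values open by 1 place to either side, and the next nearest reading would be 6.38-fold higher. Of the named loci of at least 1 FPKM, 98.7% had a higher ratio than KRT80. It was the only one of the 27 members called lower. In hg19 coordinates the KRT80 locus covers bases 52562780 to 52585784 of chromosome 12, minus strand.

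KRT7, the type II keratin of simple glandular and ductal epithelia, was the most abundant member with a settled level in untreated cells, at 1350.2 FPKM in untreated and 1099 FPKM in LATS2 OE cells. This was 18.6% lower (log2 ratio -0.30), short of the 1.5-fold rule, and 94.8% of named loci had a higher ratio. KRT8, the main type II keratin of simple epithelia, had 277 FPKM in untreated and 303 FPKM in LATS2 OE cells, a log2 ratio of 0.13, the first value being the reading of its digits nearest to the second. Of the 3 expressed type II epithelial keratins, 2 were therefore lower and 1 was higher. The other 17 type II epithelial keratins had at most 0.143 FPKM (KRT79 in LATS2 OE cells). The epidermal keratins KRT1, KRT6A, KRT6B and KRT6C were listed at 0 in both groups, and KRT5 had 0.00485 FPKM in untreated cells and was listed at 0 in LATS2 OE cells.

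The type I epithelial keratins that reached 1 FPKM in both groups, KRT10, KRT17, KRT18 and KRT19 (4 of 18), all differed by less than 10%. KRT18, the usual partner of KRT8, had a log2 ratio of 0.03, KRT17, a keratin of stressed and basal epithelia, one of -0.01, and KRT10, a keratin of differentiated epidermis, one of 0.05. KRT19, the smallest keratin and common in ductal epithelia, had a log2 ratio of -0.08. None of the 4 came near the ratio of KRT80. KRT15 (0.213 and 0.235 FPKM in untreated and LATS2 OE cells) and KRT222 (0.462 and 0.479 FPKM) were low and differed by less than 10%. KRT8 on the minus strand and KRT18 on the plus strand of chromosome 12 overlap, as GENCODE places KRT8 from 53290971 to 53343738 and KRT18 from 53342655 to 53346690. As the library kit named in the methods does not mark strand, reads in the overlap cannot be told apart.

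Hair keratins, which form the hard filaments of hair and nail, had at least 0.1 FPKM in both groups at 3 of 17 loci. KRT34, a type I hair keratin, had 1.16 FPKM in untreated and 0.773 FPKM in LATS2 OE cells, the first being the reading of its digits that lies nearest to the second. The next reading would be 15.0-fold lower. The nearest was 1.503-fold lower (log2 ratio -0.59), just inside the fold used here, but below the level needed for a call. Among 2766 low named loci (0.1 FPKM or more in each group, but not 1 FPKM in each), 5.21% were at least 1.5-fold lower, 14.1% differed that much in either direction and 94.9% had a higher ratio than KRT34. The type II hair keratin KRT81 (log2 ratio -0.21) was 13.8% lower. Its digits read 45.4 FPKM in untreated and 39.1 FPKM in LATS2 OE cells, with the point of both values open by 1 place to either side, so its level is not settled. KRT86, which lies on the other strand of the same region of chromosome 12, had 1.13 FPKM in untreated and 0.981 FPKM in LATS2 OE cells and was 13.1% lower. Its untreated value is again the nearest reading, and the other readings would make it 11.5-fold or 115-fold lower. KRT81 and KRT86 overlap and are near-identical in sequence, so how reads were divided between them is uncertain. KRT33B, a close relative of KRT34 that lies next to it on chromosome 17, had 0.151 FPKM in untreated and 0.0899 FPKM in LATS2 OE cells. KRT32, another type I hair keratin, had 0.0119 FPKM in untreated and 0.0136 FPKM in LATS2 OE cells. KRT33B and KRT32 were picked for mention after their values were seen.

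**Figure D2:**
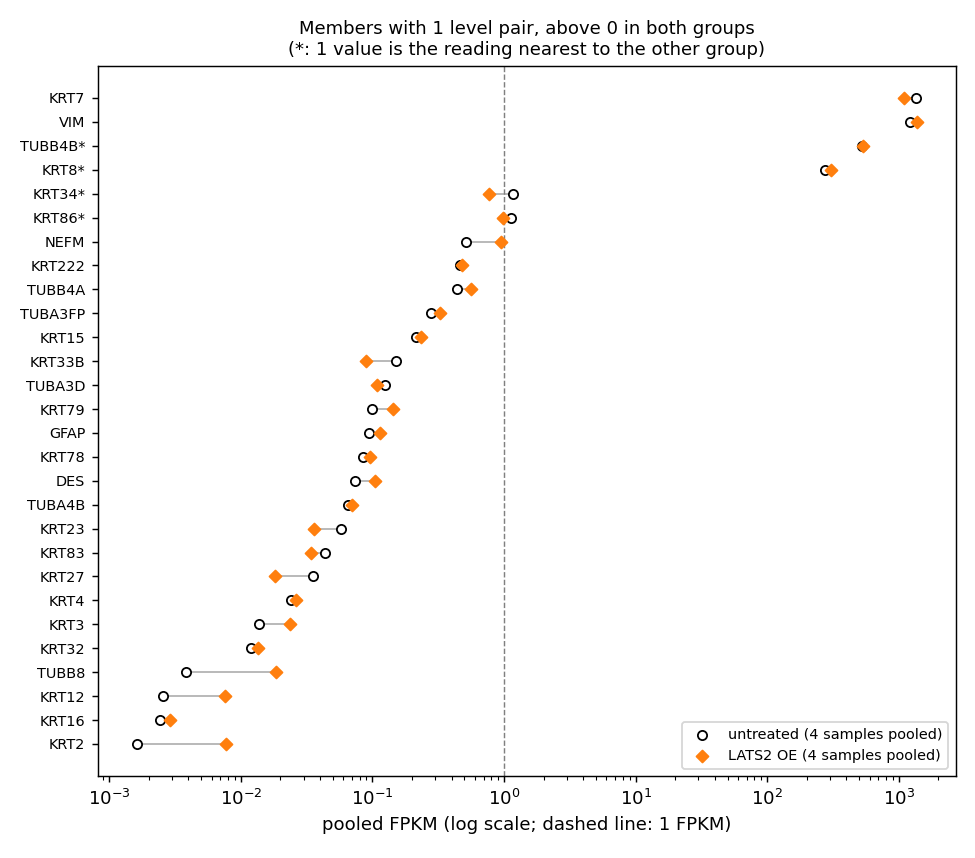
Pooled FPKM (x axis, log scale) of the members above 0 in both groups with a single nearest pair of values, with open circles for untreated and diamonds for LATS2 OE cells (1 pooled value each, no error bars) and asterisks where the point of 1 of the 2 values is open and its reading nearest to the other group is drawn. KRT7, VIM, TUBB4B and KRT8 stand at 277 FPKM or more in both groups, and all others shown at 1.16 FPKM or less.

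Vimentin, the main intermediate filament of mesenchymal cells and of podocytes, dominated type III. VIM had 1224 FPKM in untreated and 1365 FPKM in LATS2 OE cells, 11.5% higher (log2 ratio 0.16), and 88.0% of named loci had a lower ratio. Its level per length of transcript was close to that of KRT7, so that both a mesenchymal and an epithelial filament gene were abundant. In untreated cells the VIM value was below that of KRT7 and in LATS2 OE cells above it, a difference that carries no error. DES, the muscle filament desmin, had 0.0741 FPKM in untreated and 0.106 FPKM in LATS2 OE cells, and GFAP, the filament of astrocytes, 0.0942 and 0.114 FPKM. The table's VIM locus spans 23505 bases on chromosome 10, longer than the 9353 bases of the gene in GENCODE, and the table gives VIM-AS1 the same span, so reads of the overlap cannot be told apart.

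The type IV filaments held the highest ratios among these 35 members. NEFL, the light neurofilament chain on which the other chains assemble, was 1.70-fold higher in LATS2 OE cells (log2 ratio 0.77). Its digits read 6.19 and 10.5 FPKM or 61.9 and 105 FPKM in untreated and LATS2 OE cells. It was the only member called higher, and 99.3% of named loci of at least 1 FPKM had a lower ratio. With the point as it stands in the table NEFL would be 5.88-fold lower. NEFM, the medium chain, whose gene neighbours NEFL on chromosome 8 of hg19 (24771274 to 24776606 and 24808469 to 24814383), had 0.516 FPKM in untreated and 0.943 FPKM in LATS2 OE cells. Both values are below 1 and so need no repair, and the 1.83-fold difference (log2 ratio 0.87) was above that of 97.1% of low named loci, of which 8.86% were at least 1.5-fold higher. SYNM, which encodes synemin, a linker of type III filaments to the membrane, was 1.48-fold higher (log2 ratio 0.56), just outside the fold used. Its digits read 26.3 FPKM in untreated and 38.8 FPKM in LATS2 OE cells, with the point open by 1 place to either side (the next nearest reading would be 6.78-fold lower), and 98.6% of named loci had a lower ratio. The remaining type IV genes differed little, with log2 ratios of 0.02 for INA (alpha-internexin) and -0.06 for NEFH, the heavy neurofilament chain. Of the 4 type IV loci with at least 1 FPKM in both groups, 1 was thus called.

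**Figure D3:**
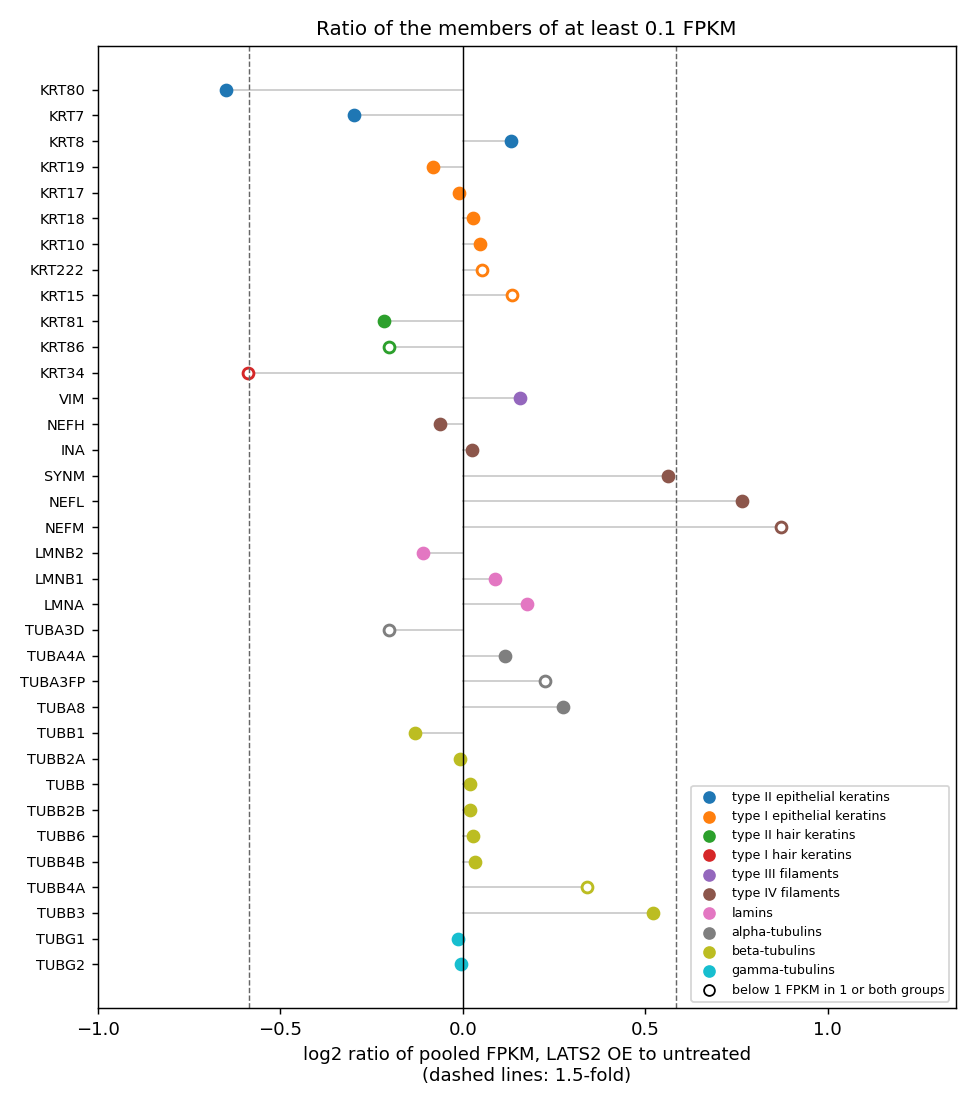
Log2 ratio of pooled FPKM, LATS2 OE to untreated (x axis), of the 35 members of at least 0.1 FPKM in both groups (y axis), coloured by class, with open symbols for those below 1 FPKM in 1 or both groups and dashed lines at 1.5-fold. KRT80 lies beyond the lower line and KRT34 just beyond it, NEFL and NEFM lie beyond the upper line, and SYNM and TUBB3 lie just inside it (there are no error bars because each group has 1 pooled value).

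The lamins differed little. LMNA, the source of lamins A and C, was 13.1% higher in LATS2 OE cells (log2 ratio 0.18), and 89.6% of named loci had a lower ratio. LMNB1 had a log2 ratio of 0.09 and LMNB2 one of -0.11. The level of each of the 3 lamin genes is open at 3 places of the point, so their order could not be given.

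Among the tubulins, 11 of 27 loci reached 1 FPKM in both groups and none was called, while TUBB3 came nearest to the fold. TUBB3, the class III beta-tubulin typical of neurons and also present in many cultured cells, was 1.44-fold higher in LATS2 OE cells (log2 ratio 0.52), and 98.5% of named loci had a lower ratio. Its digits read 6.22 and 8.93 FPKM or 62.2 and 89.3 FPKM in untreated and LATS2 OE cells. With the point as it stands in the table it would be 6.96-fold lower. The TUBB3 locus lies on the plus strand of chromosome 16 from 89988417 to 90002505.

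The general beta-tubulins were level between the groups. TUBB4B had 523 FPKM in untreated and 536 FPKM in LATS2 OE cells, a log2 ratio of 0.03, the second value being the reading nearest to the first. TUBB, TUBB2A, TUBB2B and TUBB6 had log2 ratios of 0.02, -0.01, 0.02 and 0.03. TUBB1, the isotype of platelets and their precursors, had one of -0.13. TUBB2A and TUBB2B are near-identical, so their reads may be divided wrongly. Low isotypes were TUBB4A, with 0.443 and 0.561 FPKM in untreated and LATS2 OE cells, and TUBB8, with at most 0.0186 FPKM.

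The main alpha-tubulins could not be followed. TUBA1A with TUBA1B, and TUBA1C, share a stretch of chromosome 12 from 49521563 to 49667121 and were listed at 0 with a flag for too many reads, as were ACTB and ACTG1, so the 0 is a failed estimate. Of the measured genes, TUBA8 was 21.0% higher in LATS2 OE cells (log2 ratio 0.27), and 94.6% of named loci had a lower ratio. TUBA4A had a log2 ratio of 0.12. TUBA3D (0.125 and 0.109 FPKM in untreated and LATS2 OE cells) and TUBA3FP (0.277 and 0.324 FPKM) were low, and TUBA3D has near-identical copies in TUBA3C and TUBA3E. The gamma-tubulins TUBG1 and TUBG2, which nucleate microtubules, were nearly equal in both groups, with differences of -0.964% and -0.325% and log2 ratios of -0.01 and -0.0047.

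**Figure D4:**
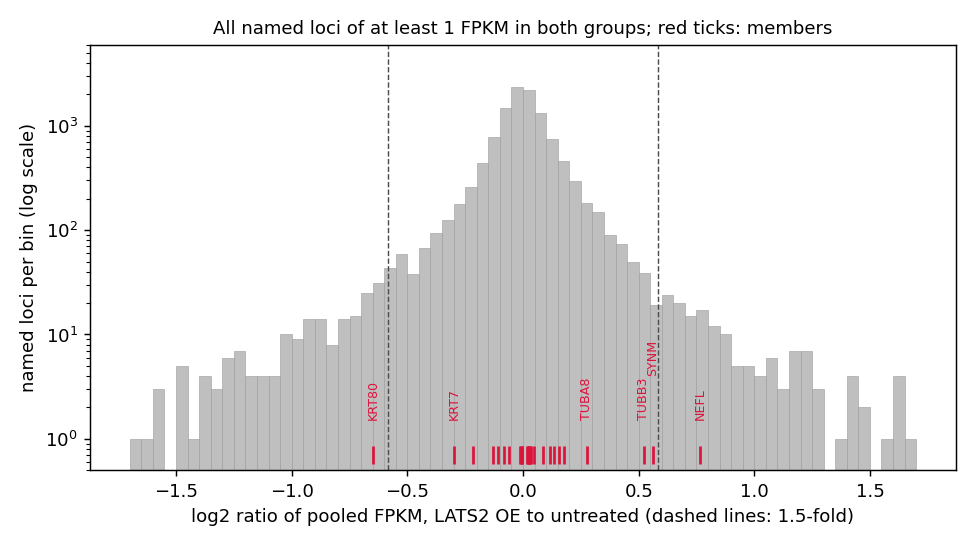
Histogram of the log2 ratio of LATS2 OE to untreated (x axis) over the 11916 named loci with 1 FPKM or more in each group (y axis, loci per bin, log scale), with red ticks for the 27 members and dashed lines at 1.5-fold. Most members lie in the centre, and KRT80 and NEFL lie outside the lines.

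Genes that bind, link or modify these filaments were counted from lists written from textbook knowledge. Of 80 such genes with at least 1 FPKM in both groups, 1 was called higher and 2 lower (3.75% called, beside 2.93% of all named loci). The 3 were PKP1, PKP2 and FLG, from a list of linkers of intermediate filaments. Over the 15 linkers of that level the median log2 ratio was 0.05. PKP1 and PKP2 encode plakophilins, which tie keratin filaments to desmosomes. PKP1 was 1.79-fold higher (log2 ratio 0.84) and PKP2 1.53-fold lower (log2 ratio -0.61) in LATS2 OE cells, while their next nearest readings would be 5.59-fold lower and 6.54-fold higher. FLG, the filaggrin gene, whose product bundles keratin filaments in epidermis, was 2.27-fold lower (log2 ratio -1.18), and its digits also allow a value 4.40-fold higher. FLG-AS1 has the same span in the table, so reads of the overlap cannot be told apart. The plectin and desmoplakin genes, PLEC and DSP, were not called.

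No gene was called in the other lists. These were 16 partners and processing enzymes of lamins (median log2 ratio 0.02), 16 microtubule-associated and plus-end proteins (0.03), 16 tubulin folding and nucleation factors (-0.0019), 11 tubulin-modifying enzymes (0.02) and 6 severing proteins (-0.04), each counted at 1 FPKM or more in both groups. The median over all named loci of that level was -0.0039. Of the 4 intermediate filament genes outside the members, none reached 1 FPKM in both groups. NES, the filament protein nestin, a partner of vimentin in podocytes, had 0.539 FPKM in untreated and 0.917 FPKM in LATS2 OE cells, 1.70-fold higher, and was picked for mention after its values were seen. Of low named loci, 8.86% were at least 1.5-fold higher. BFSP1 had 0.306 FPKM in untreated and 0.298 FPKM in LATS2 OE cells, and PRPH and BFSP2 were below 0.1 FPKM in both groups.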

How the data were processed

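RNA sequencing of 4 untreated and 4 LATS2 OE samples of 1 AB8/13 line was analysed. Groups came from the sample titles, and nothing states that the samples are separate cultures. The authors selected poly(A) RNA, trimmed reads with Trimmomatic (0.33), used TopHat for alignment to hg19, and took FPKM from the Cufflinks package. For TopHat, Cufflinks and the annotation no version is stated in the paper or labels. The authors deposited 1 table with pooled FPKM values per group. It also holds their log2 ratio, test statistic, p-value and q-value per locus, which were not used. A column for each sample was not part of it, so the limma test planned for that case was not run.

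Cells of at least 1 with exactly 3 decimals were read as every place of the point that leaves at least 1, and other cells as they stand. The pair of values nearest to each other gave the ratio. On simulated data this returned the true ratio for 2000 of 2000 pairs changed by under 1.5 on the log2 scale. Changes of that size lie under the 3.16-fold limit, so this count follows from the rule itself. It does not test the rule on the measured values. For pairs changed by 2.5 on the log2 scale, the rule returned the true ratio in 707 of 2000. Loci flagged for too many reads (6) or as failed (1) were left out. Start coordinates were raised by 1 to count from 1. Genes are described with GENCODE on the same build, and sequences come from RefSeq. All members of at least 1 FPKM in both groups were named, lower ones where at least 0.1 FPKM in both and at least 1.5-fold different, and called genes of each further list. The members and lists were chosen with earlier results of these data known. Python 3.11.15, numpy 2.4.6, pandas 2.3.3 and matplotlib 3.10.9 were used. Other fold thresholds, level filters, centring, 1-name loci, the digits as deposited and a pseudocount of 0.1 FPKM were tried. Some marker genes are not reported here.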

Additional observations from a re-analysis of the deposited data

How the results depend on the processing

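Centring the ratios on the median of all named loci and keeping only loci with 1 name left the counts of called members at 1 higher and 1 lower. For all named loci the counts were then 154 higher and 191 lower with centring, and 150 and 190 with 1 name. With a threshold of 0.32 on the log2 scale the counts were 3 higher (NEFL, SYNM and TUBB3) and 1 lower for members, 500 higher and 550 lower for all named loci and 8 for the associated genes. With a fold of 2 they were 0 and 0, 43 and 53, and 1. With no filter on low values they were 6 and 5, 1510 and 1031, and 6, and the median log2 ratio of the members was 0.053. More loci stand behind these counts, and no shares were taken. The members added include some near 0, such as KRT2 (0.00162 and 0.00773 FPKM in untreated and LATS2 OE cells) and TUBB8 (0.00382 and 0.0186 FPKM). Admitting loci of at least 1 FPKM in 1 group gave 1 higher member, NEFL, and 2 lower members, KRT80 and KRT34, beside 187 higher and 232 lower for all named loci. With the digits as deposited no member was called higher (0) and 6 were called lower, namely KRT80, NEFL, TUBB3, KRT10, TUBA8 and TUBB2A. All named loci were not counted at this setting, so these member counts have no background share. For TUBB3, KRT10, TUBA8 and TUBB2A the 2 values have unequal digit numbers, which shifts their ratio by a power of 10. NEFL has equal digit numbers in both groups, and as deposited it was 5.88-fold lower. KRT80 had the same ratio as under the nearest-value rule. Of the 2 members below 1 FPKM in 1 or both groups that passed 1.5-fold, 1 remained with a pseudocount of 0.1 FPKM (NEFM), and KRT34 was then 1.45-fold lower. No paired analysis was possible because the table holds 1 pooled value per group, and for the same reason no sample could be left out in turn. Within 10% of the untreated value lay 72.1% of named loci of at least 1 FPKM and 31.5% of the low ones. The depth is unknown, and its part in this was not tested.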
